A study of Mus musculus with 2 samples.

Results

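The genes described here are 8 of the 39098 in the tables: the nicotinic acetylcholine receptor subunits Chrna3, Chrna4, Chrna5, Chrna6, Chrna7, Chrnb2, Chrnb3 and Chrnb4, chosen by name as the subunits known from peripheral and central neurons. They were measured in single cells of the trigeminal ganglion (TG), which holds the cell bodies of the sensory neurons of the face. One library came from control mice and one from mice given complete Freund's adjuvant (CFA), an oil emulsion of killed mycobacteria that causes lasting inflammation, in the right vibrissal pad. All mice were males aged 5 to 8 weeks, C57BL/6 in the study's methods. By those methods the ganglia of the right side, that of the injection, were taken a week after it. The control group is labelled untreated, while the methods describe saline injection, and how many animals went into each library was not given. Cells were freed with papain and a density gradient, so the mix of cells is that of a dissociated ganglion.

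Nicotinic receptors are pentameric cation channels opened by acetylcholine. Alpha subunits carry the main face of the binding site, and beta subunits complete it. Chrna3 with Chrnb4 forms the classical receptor of autonomic ganglia, Chrna4 with Chrnb2 the common receptor of the brain, and Chrna7 forms receptors of its own. Chrna6 joins beta subunits, often Chrnb3, while Chrna5 and Chrnb3 are accessory subunits that take part in receptors built around other subunits. In sensory ganglia nicotinic receptors are known on part of the nociceptors, the neurons that report damage.

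With 1 library per condition, no difference between control and CFA could be tested, and the animals' spread is unknown. Levels are given as CPM, the UMIs (counted molecules) of a gene scaled to 1000000 UMIs of the group, and intervals are exact Poisson 95% intervals that cover counting error only. With the study's limits on genes and mitochondrial counts per cell, 6695 control and 3661 CFA cells remained. Of these, 813 and 411 were neurons, with a median of 43745 and 36806 UMIs. The paper reports a different cell number after its own filtering and analysed a random subsample of each library. Here all cells within these limits were used, so the sets differ. The libraries shared 27 cell numbers. Neurons were gated on raw UMIs of marker genes, none of them nicotinic. Genes that set no gate are given as a check for some of the classes. Foxp2 was 122.9 control and 126.6 CFA CPM in Trpm8+ neurons, against 9.618 and 9.691 CPM over all neurons. Tac1, which encodes substance P, was 7063 and 5775 CPM in the Calca+ neurons without Nefh, against 3183 and 2778 CPM. For Nefh+ neurons the check was mixed. Ntrk3 was 259.7 and 197.1 CPM there, against 62.61 and 63.71 CPM over all neurons. Pvalb was only 23.33 and 5.631 CPM there, against 12.88 and 10.17 CPM over all neurons. In Trpm8+ neurons Pvalb was higher, at 183.2 and 161.0 CPM. Neurons rich in Calca, which encodes the peptide CGRP, were divided into those with Nefh, a neurofilament of myelinated neurons (19 control and 7 CFA neurons), those with Sstr2 (125 and 70) and those with little Sstr2 (219 and 116). The last 2 together are called Calca+ neurons without Nefh, 344 control and 186 CFA. The other classes were Mrgprd+ (144 and 57), Mrgpra3+ (43 and 12), Nppb/Sst+ (14 and 12), Tafa4/Th+ (65 and 41), Trpm8+ (47 and 24) and Nefh+ (20 and 10) neurons.

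In GRCm38 coordinates of GENCODE M21, 3 members lie side by side on chromosome 9: Chrna5 at chr9:54980880-55007779 on the plus strand, Chrna3 at chr9:55010111-55026562 and Chrnb4 at chr9:55028154-55048779 on the minus strand. Chrna3 and Chrnb4 were 1591 bases apart. Chrnb3 at chr8:27368711-27399730 (plus) and Chrna6 at chr8:27403212-27413944 (minus) form the other neighbouring pair, 3481 bases apart. Chrnb2 lies at chr3:89746195-89764632, Chrna4 at chr2:181018380-181043546 and Chrna7 at chr7:63098692-63212569, all on the minus strand. The promoters of Chrna3 and Chrnb4 are shown because these neighbours were found in largely the same neurons. Each runs from 250 bases before to 50 bases after the RefSeq gene start in GRCm38.p6, 5′ to 3′ on the minus strand, Chrna3 at chr9:55026513-55026812 and Chrnb4 at chr9:55048495-55048794. Capitals mark GGGCGG and CCACCC on either strand.
Chrna3: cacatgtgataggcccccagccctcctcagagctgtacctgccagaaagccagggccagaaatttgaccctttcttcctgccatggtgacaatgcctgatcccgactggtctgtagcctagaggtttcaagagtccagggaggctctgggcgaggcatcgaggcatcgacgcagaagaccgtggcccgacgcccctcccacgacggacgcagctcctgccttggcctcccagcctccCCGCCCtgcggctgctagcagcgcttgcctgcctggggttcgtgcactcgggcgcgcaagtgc
Chrnb4: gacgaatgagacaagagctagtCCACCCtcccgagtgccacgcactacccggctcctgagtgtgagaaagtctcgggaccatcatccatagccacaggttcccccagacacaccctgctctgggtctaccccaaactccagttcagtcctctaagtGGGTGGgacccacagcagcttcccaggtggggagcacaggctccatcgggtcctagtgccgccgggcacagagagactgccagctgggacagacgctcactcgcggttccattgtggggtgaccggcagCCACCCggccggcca
The Chrna3 promoter held 1 GGGCGG, read on its other strand, and no CCACCC. The Chrnb4 window held 3 CCACCC and no GGGCGG. By the GENCODE coordinates above, the RefSeq start of Chrnb4 lies inside the gene, and so does most of this window. Which of the 2 starts is used in these neurons was not tested. Among 32851 promoters of this length, 35.66% held GGGCGG, 31.48% held CCACCC and 2.253% held CCACCC at least 3 times. GC content was 64.33% for Chrna3 and 63.0% for Chrnb4, against a median of 52.67%. These matches describe letters in the window and say nothing about the factors that bind there.

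Chrna3 and Chrnb4 were found mostly in the Calca-rich neurons. Of the neurons' Chrna3 UMIs, 89.82% in control and 89.4% in CFA lay in the 3 Calca-rich classes, and of Chrnb4 UMIs 88.55% and 94.12%. Calca+Nefh+ neurons added little to this, with 2 Chrna3 UMIs (1.564 CPM) and 10 Chrnb4 UMIs in control and 0 of each in CFA. Chrna3 in control stood at 45.3 CPM (39.5 to 51.72) in Sstr2+ and 43.87 CPM (39.56 to 48.52) in Sstr2-low Calca+ neurons, which were not told apart. The next class, Trpm8+ neurons, was clearly lower at 10.24 CPM, and Chrna3 was 5.942 CPM in Mrgpra3+ and 0.1894 CPM in Mrgprd+ neurons. In CFA it was 9.385 CPM (5.95 to 14.08) in Sstr2+ and 26.88 CPM (22.13 to 32.34) in Sstr2-low Calca+ neurons. The other CFA classes held few or no UMIs, 4 in Trpm8+, 3 in Mrgpra3+ and 0 in Mrgprd+ and Tafa4/Th+ neurons.

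Chrnb4 in control was 47.46 CPM (42.97 to 52.28) in Sstr2-low and 39.51 CPM in Sstr2+ Calca+ neurons, then 18.03 CPM in Trpm8+, 7.818 CPM in Calca+Nefh+ and 5.49 CPM in Tafa4/Th+ neurons. In CFA the same leading classes stood at 29.28 CPM (24.31 to 34.96) and 15.51 CPM. The control Chrnb4 level in Trpm8+ neurons came from 44 UMIs in 5 of 47 neurons, 33 of them in 1 neuron, and CFA held 2 UMIs there. The 25 control Chrna3 UMIs in Trpm8+ neurons lay in 9 of the 47, with 16 in 1 neuron. So most UMIs of the pair in control Trpm8+ neurons lay in few neurons. The share of these neurons with a Chrna3 UMI, 19.15%, was still near the 19.19% of control Calca+ neurons without Nefh. In CFA these shares were 8.333% and 11.83%.

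**Figure D1:**
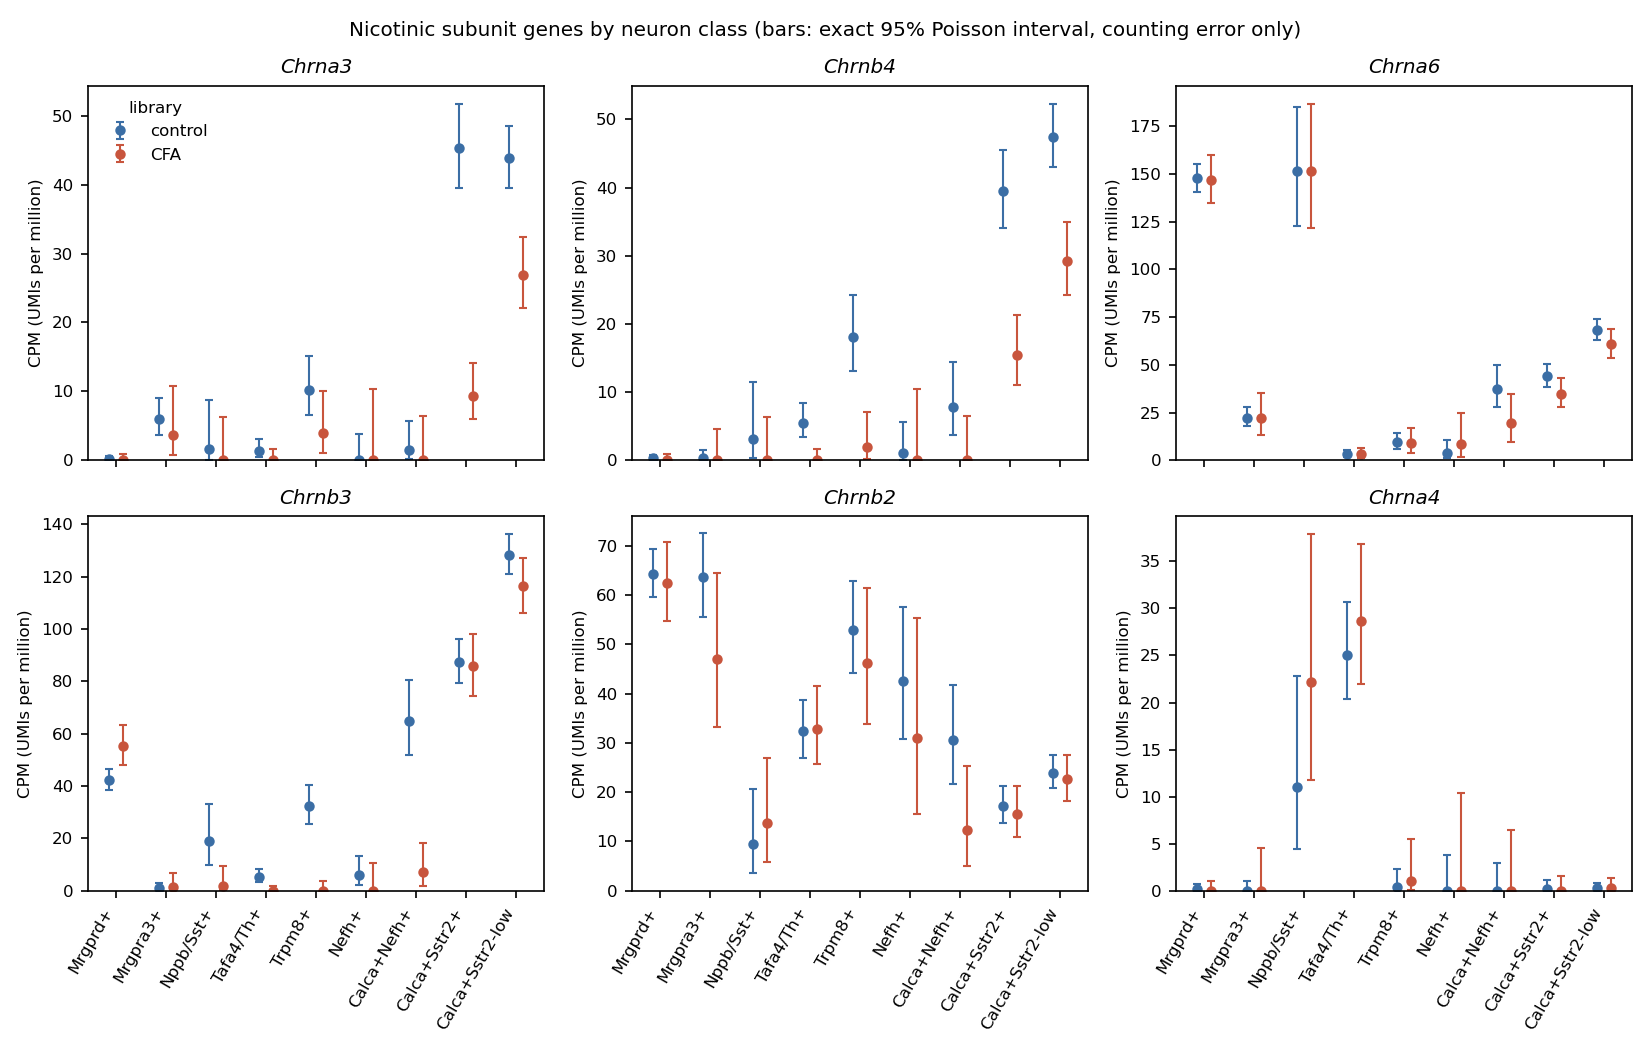
Level of 6 subunit genes (CPM) in 9 neuron classes, control and CFA side by side, with bars for the exact Poisson 95% interval. Chrna3 and Chrnb4 stood highest in Calca+ neurons, Chrna6 in Mrgprd+ and Nppb/Sst+ neurons at 147.9 and 151.7 CPM in control, and Chrna4 in Tafa4/Th+ neurons at 25.1 CPM in control.

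Even within Calca+ neurons without Nefh the pair was found in a minority of neurons. A Chrna3 UMI was seen there in 66 of 344 control and 22 of 186 CFA neurons, and a Chrnb4 UMI in 78 and 29. Neurons of this class with 5 or more UMIs numbered 33 and 9 for Chrna3 and 40 and 14 for Chrnb4. Over all neurons Chrna3 was detected in 91 of 813 control neurons (11.19%) and 31 of 411 CFA neurons (7.543%), and Chrnb4 in 98 (12.05%) and 35 (8.516%). Of all neurons, those with 5 or more UMIs, 36 in control and 9 in CFA, held 85.18% and 73.51% of the neurons' Chrna3 UMIs. For Chrnb4 these were 45 and 14 neurons with 85.22% and 75.88%. The highest single neuron held 53 Chrna3 UMIs in control and 32 in CFA, and 42 and 18 Chrnb4 UMIs. Thinned to 5000 UMIs each, 5.457% of control neurons (43 of 788, interval 3.977 to 7.28) and 3.98% of CFA neurons (16 of 402, 2.292 to 6.383) kept a Chrna3 UMI. At that depth the intervals of the libraries overlapped. Thinned to 2000 UMIs the order turned, at 1.968% of control (16 of 813) and 2.676% of CFA neurons (11 of 411), so no order of the libraries is read from these shares.

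The neurons with Chrna3 were to a large part the neurons with Chrnb4. Of the Chrna3 neurons, 65 of 91 in control (71.43%, 61.0 to 80.41) and 23 of 31 in CFA (74.19%, 55.39 to 88.14) held a Chrnb4 UMI, against 12.05% and 8.516% of all neurons. Among Calca+ neurons without Nefh it was 57 of 66 and 19 of 22, 86.36% in both libraries, against 22.67% and 15.59% of that class. Thinned to 5000 UMIs, 22 of 43 control (51.16%) and 8 of 16 CFA neurons with Chrna3 also had Chrnb4. Across single neurons Pearson's r between the genes (log2 of counts per 10000 + 1) was 0.79 in 813 control and 0.70 in 411 CFA neurons. Neurons of 1 library share its preparation, and deep neurons show more of any gene, so r is given as a description. Of the Chrna3 neurons, 80.22% in control and 70.97% in CFA also held the accessory subunit Chrnb3, and of the Chrnb4 neurons 82.65% and 82.86%. Chrnb3 was found in 35.67% and 29.93% of all neurons, and in 57.27% and 49.46% of Calca+ neurons without Nefh.

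**Figure D2:**
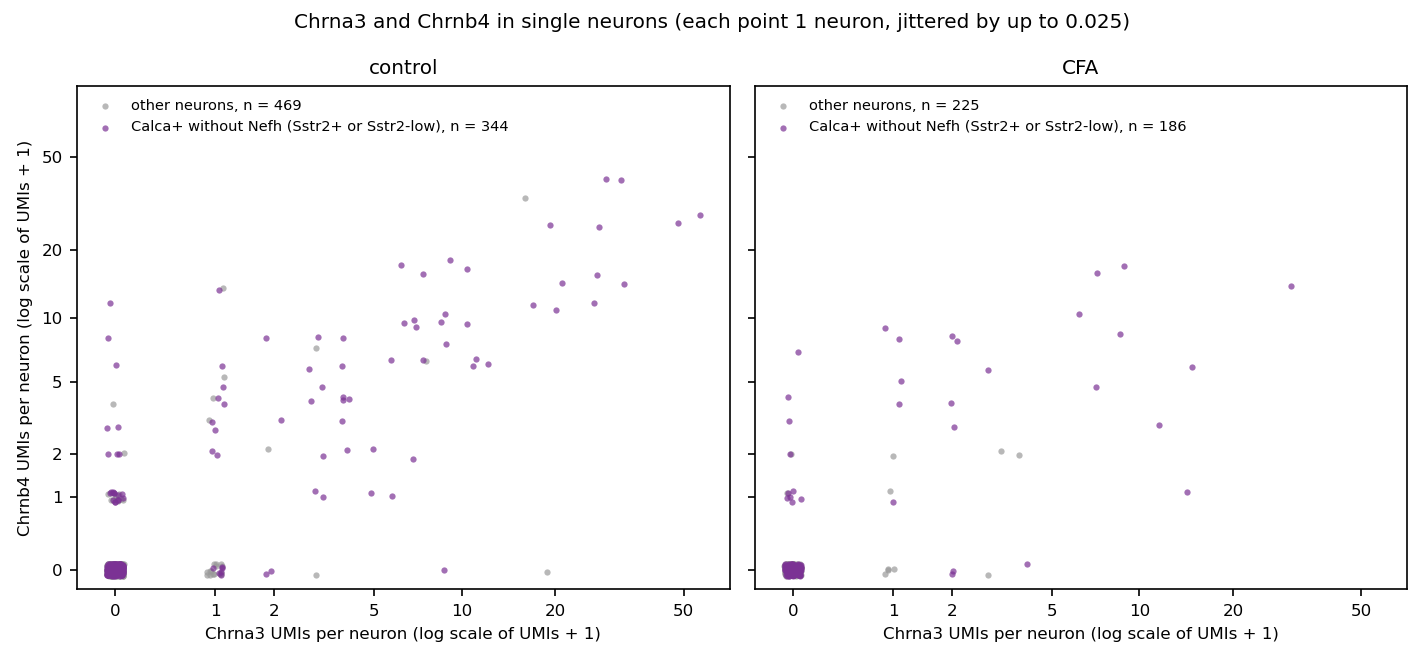
UMIs of Chrna3 against Chrnb4 in single neurons, 1 point per neuron, Calca+ neurons without Nefh (344 control, 186 CFA) and the other classed or unclassed neurons (469 and 225). Both genes are present in 65 control and 23 CFA neurons, of which 57 and 19 are Calca+ neurons without Nefh.

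The gene that ran most closely with Chrnb3 across neurons was Lpar1, the receptor of lysophosphatidic acid (r 0.60 in control and 0.56 in CFA), and Lpar1 also led the list for Chrnb4 (0.58 and 0.52). Calca+ neurons without Nefh were therefore divided by Lpar1 UMIs, a division chosen after these values were seen. The 79 control and 44 CFA neurons with 10 or more Lpar1 UMIs had a median of 48688 and 37331 UMIs and made up 9.717% and 10.71% of neurons. They held 78.29% and 78.15% of the neurons' Chrna3 UMIs, 75.07% and 72.35% of Chrnb4, 42.15% and 48.19% of Chrnb3, but 12.63% and 10.91% of Chrna6 and 6.658% and 7.204% of Chrnb2. Lpar1 was picked for its r with Chrnb3 and Chrnb4 in both libraries, so their gathering in this set shows those r values in another form and is a description, and neither library is a check of it.

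In the Lpar1-rich neurons Chrna3 had a control level of 124.4 CPM (113.9 to 135.5) and a CFA level of 65.55 CPM (54.26 to 78.5), with a UMI in 48 of 79 and 18 of 44 neurons. Chrnb4 was 123.2 and 68.32 CPM, with a UMI in 53 and 22 neurons. With 1 to 9 Lpar1 UMIs (129 control and 45 CFA neurons) Chrna3 was 15.22 and 9.881 CPM and Chrnb4 17.15 and 22.23 CPM. With none (136 and 97 neurons) both were near 0, at 4 and 1 Chrna3 UMIs and 3 and 1 Chrnb4 UMIs. Chrnb3 followed the same steps less steeply, from 228.5 control and 251.1 CFA CPM through 77.59 and 71.02 to 45.63 and 40.02 CPM. Chrna6 differed least of these 4 genes, from 82.75 and 64.99 CPM to 45.19 and 32.83 CPM. The Lpar1-rich neurons also held neuronal nitric oxide synthase Nos1, itself in the lists for Chrna3 and Chrnb4, at 281.8 and 198.9 CPM against 33.89 and 19.39 CPM without Lpar1, and Trpa1, the irritant-gated channel, at 1124 and 892.1 CPM against 122.1 and 157.0 CPM.

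**Figure D3:**
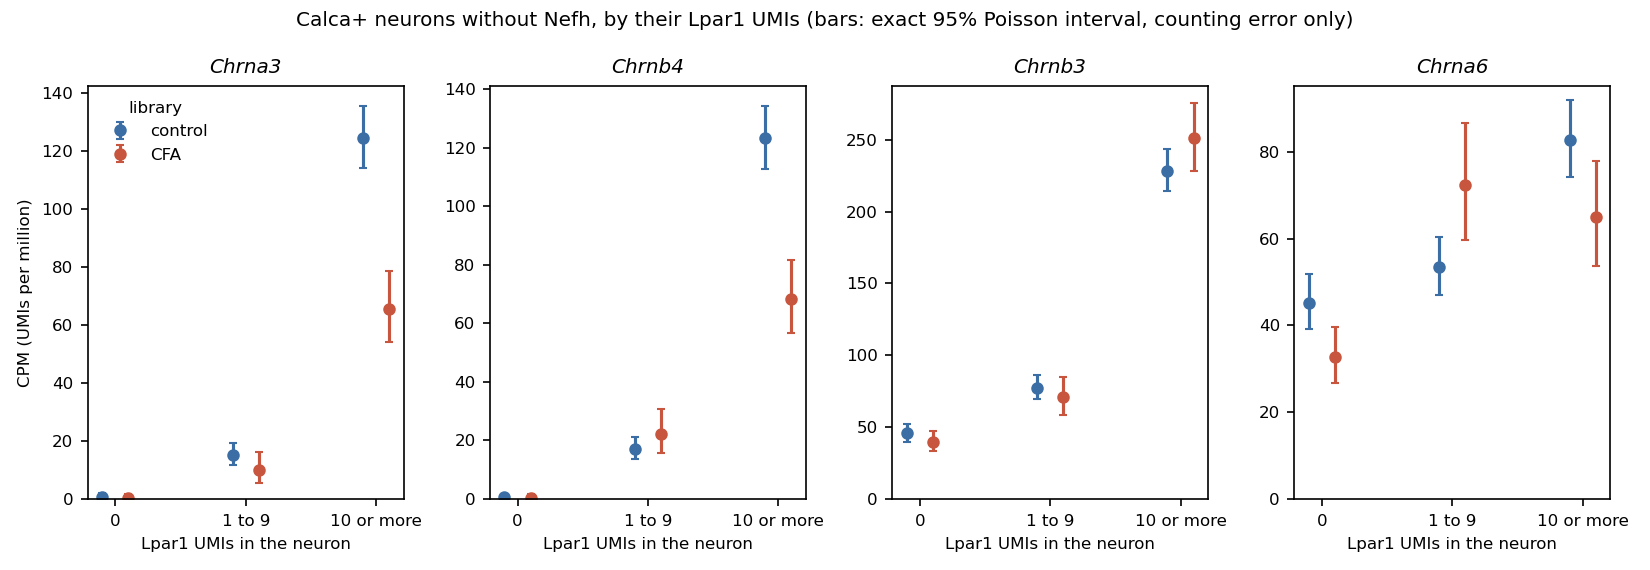
Level (CPM, exact Poisson 95% intervals) of Chrna3, Chrnb4, Chrnb3 and Chrna6 in Calca+ neurons without Nefh that held 0, 1 to 9, or 10 or more Lpar1 UMIs, control and CFA. In both libraries Chrna3 and Chrnb4 go from under 1 CPM to 124.4 and 123.2 CPM in control and 65.55 and 68.32 CPM in CFA.

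Chrna6 had another pattern, high in the nonpeptidergic Mrgprd+ neurons and in the Nppb/Sst+ neurons, which serve itch. The Mrgprd+ neurons of the control had 147.9 CPM (140.7 to 155.4) and those of CFA 147.0 CPM (135.0 to 159.8), with a UMI in 138 of 144 and 53 of 57 of them. In Nppb/Sst+ neurons it was 151.7 CPM (122.9 to 185.2) and 151.8 CPM (121.9 to 186.8), not told apart from Mrgprd+ neurons. Sstr2-low Calca+ neurons followed at 68.41 and 60.96 CPM, a log2 distance below Mrgprd+ neurons of 1.11 in control and 1.27 in CFA that lay outside counting error. Then came Sstr2+ Calca+ neurons at 44.27 and 34.69 CPM. Calca+Nefh+ neurons had 37.53 and 19.36 CPM and Mrgpra3+ neurons 22.35 and 22.26 CPM, told apart in control only. Tafa4/Th+ neurons had 3.137 and 3.243 CPM. Thinned to 5000 UMIs, 45.83% of control and 56.14% of CFA Mrgprd+ neurons kept a Chrna6 UMI, against 22.37% and 21.55% of Sstr2-low Calca+ neurons.

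Chrnb3, its chromosomal neighbour, led instead in Sstr2-low Calca+ neurons, with a control level of 128.5 CPM (121.0 to 136.3) and a CFA level of 116.4 CPM (106.3 to 127.2). Sstr2+ Calca+ neurons had 87.51 and 85.69 CPM, told apart from the Sstr2-low class in both libraries. In Calca+Nefh+ neurons it was 64.89 CPM in control, from 83 UMIs in 7 of 19 neurons. In CFA it was 7.041 CPM there, from 4 UMIs in 1 of 7 neurons. Mrgprd+ neurons had 42.23 CPM (38.41 to 46.34) and 55.2 CPM (47.95 to 63.23). The 79 control UMIs in Trpm8+ neurons (32.37 CPM) lay in 11 neurons, and CFA had 0 there.

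In Mrgprd+ neurons Chrnb3 was not spread evenly but held by 38 of 144 control and 16 of 57 CFA neurons. Of these, 36 of the 38 and all 16 also held Chrna6. As Chrna6 was found in 95.83% and 92.98% of all Mrgprd+ neurons, this overlap is near the base share. The levels of Chrnb3 and Chrna6 in this class had r 0.40 and 0.41 (144 and 57 neurons), against 0.28 and 0.26 over all neurons. When the class was divided by Chrnb3, again after values were seen, the 24 control and 12 CFA neurons with 5 or more UMIs had Chrna6 at 258.1 and 245.2 CPM. The 106 and 41 without Chrnb3 had 127.1 and 119.1 CPM. Chrnb2 did not follow, at 56.42 and 61.92 CPM against 66.99 and 61.64 CPM, nor did Mrgprd itself, at 510.6 and 423.5 CPM against 545.5 and 519.6 CPM. Calca was higher in the neurons with 5 or more Chrnb3 UMIs, at 1816 and 1801 CPM against 1008 and 738.1 CPM. Scn4b, a sodium channel beta subunit, was 66.48 and 107.7 CPM against 13.14 and 7.941 CPM, and the adhesion molecule Alcam 196.1 and 283.6 CPM against 76.44 and 73.36 CPM. The transcription factor Nr2f2 was 94.41 and 164.7 CPM against 24.25 and 23.45 CPM. In the 14 and 4 neurons with 1 to 4 Chrnb3 UMIs, Chrna6 was 111.4 and 129.7 CPM, Scn4b 8.57 and 0 CPM and Nr2f2 24.64 and 12.66 CPM, near the neurons without Chrnb3. Calca was 958.8 and 405.0 CPM in these neurons. Alcam was 82.49 and 113.9 CPM, the CFA value lying above that of the neurons without Chrnb3. Alcam and Nr2f2 were among the 5 genes most like Chrnb3 in this class, and Alcam and Scn4b among the 5 most like Chrna6, so their distance between the divisions describes these r values again. In Calca+ neurons without Nefh, 151 of 197 control (76.65%) and 63 of 92 CFA neurons (68.48%) with Chrnb3 held Chrna6. Over all neurons of that class Chrna6 was found in 61.05% and 54.3%.

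**Figure D4:**
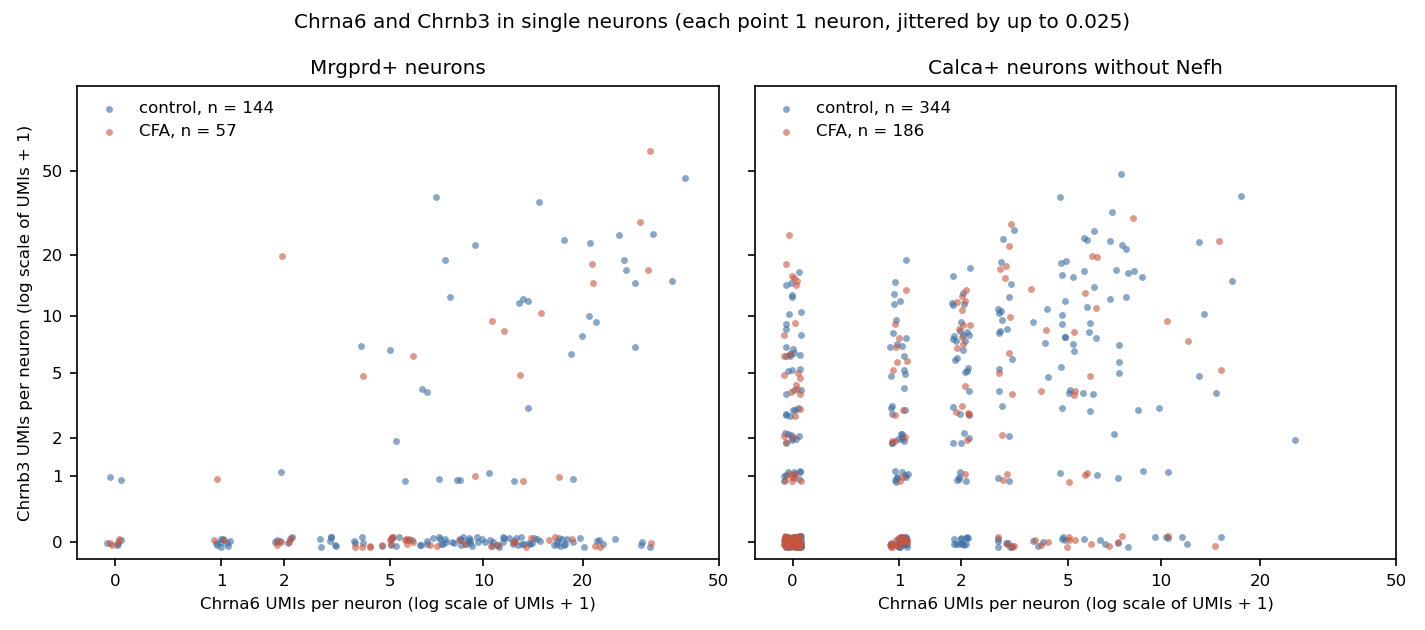
UMIs of Chrna6 against Chrnb3 in single neurons, 1 point per neuron, for Mrgprd+ neurons and Calca+ neurons without Nefh of both libraries. Nearly all Mrgprd+ neurons hold Chrna6, and 38 of 144 control and 16 of 57 CFA neurons also hold Chrnb3.

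Chrnb2, the beta subunit that joins many alpha subunits, was spread over all 9 classes. It was found in 137 of 144 control and 53 of 57 CFA Mrgprd+ neurons, at 64.3 and 62.37 CPM. Mrgpra3+ neurons had 63.67 and 46.99 CPM, Trpm8+ neurons 52.86 and 46.14 CPM and Tafa4/Th+ neurons 32.42 and 32.89 CPM. Calca+ neurons were lower, at 23.96 and 22.56 CPM in the Sstr2-low and 17.17 and 15.51 CPM in the Sstr2+ class, and few neighbours in this order were told apart. Chrnb2 overlaps the RNA-editing gene Adar on the other strand over 7252 bases, and whether counting used strand was not given, so Chrnb2 values are uncertain. Adar stood at 35.85 and 34.46 CPM in neurons and 28.47 and 21.85 CPM outside them, where Chrnb2 stood at 3.002 and 3.844 CPM. By class Adar stood at 58.04 and 53.74 CPM in Tafa4/Th+ neurons, above 41.0 and 39.81 CPM in Mrgprd+ neurons. Chrnb4 likewise overlaps an antisense gene, Gm47877.

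Chrna4 lay mostly in 2 classes. Tafa4/Th+ neurons, the low-threshold C-fibre mechanoreceptors, held 96 of its 112 UMIs in control and 62 of 78 in CFA, at 25.1 CPM (20.33 to 30.65) and 28.72 CPM (22.02 to 36.82). They lay in 37 of 65 and 27 of 41 neurons. Nppb/Sst+ neurons held 7 and 13 UMIs, 11.06 and 22.17 CPM. Chrna7 had 21 UMIs in all control and 12 in all CFA neurons. Of these, 10 lay in 9 of 43 Mrgpra3+ neurons in control and 3 in 2 of 12 in CFA. In CFA, Trpm8+ neurons held as many, 3 in 2 of 24 neurons, and Tafa4/Th+ neurons held 2. The CFA counts therefore do not place Chrna7 in a class. Chrna5 had 4 and 3 UMIs. These were too few to place Chrna5 in a class.

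Outside neurons the members were scarce. Of the UMIs in kept cells, 98.23% to 99.4% in control and 96.84% to 100% in CFA lay in neurons for Chrna3, Chrnb4, Chrna6, Chrnb3 and Chrnb2, and 95.73% and 95.12% for Chrna4. The 5882 control and 3250 CFA cells outside the neuron gate, at a median of 1304.5 and 1094 UMIs, held 114 and 47 UMIs of all 8 members. At the neurons' ratio of members to neuron markers, the neuron markers found in these cells would bring 141.3 and 43.3 member UMIs. Single members lay on both sides of their own ratio. In control Chrna3 had 4 UMIs against 11.6 and Chrnb3 24 against 39.6, while Chrna4 had 5 against 1.945 and Chrna7 3 against 0.3647. In CFA Chrnb2 had 19 against 8.395. Of the 5 control Chrna4 UMIs, 4 lay in cells that reached no type. The 360 control cells without a type held 21 member UMIs against 13.71, and the 197 of CFA 6 against 6.513. Any UMI of a member was seen in 1.598% and 1.169% of all cells outside the neuron gate. In Schwann cells (3035 and 1632) there were 47 and 16 member UMIs, against 67.13 and 16.09 at that ratio, and in satellite glia (1079 and 426) 20 and 3, against 25.03 and 4.058. A Chrna3 UMI was found in 0 of 3035 control Schwann cells, which allows a share of up to 0.09885% of cells with a UMI. At the median of 1087 UMIs per Schwann cell this does not limit the share of cells that express the gene. Chrnb1, the muscle-type beta subunit and not a member, lay far above its ratio, with 41 and 18 UMIs outside neurons against 0.3994 and 0.1872 at the neurons' ratio. Of these, 20 and 5 lay in endothelial cells (47.99 and 20.62 CPM).

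Between the libraries Chrna3 and Chrnb4 were lower in CFA, Chrna4 was higher, and Chrna6, Chrnb3 and Chrnb2 stayed within 1.5-fold. Among the 14497 genes with at least 50 counts over all neurons, 9.28% lay past 1.5-fold in either direction and 4.81% were lower past 1.5-fold. Of the 6 members with that many counts 3 lay past 1.5-fold, 2 of them lower. The members' median log2 ratio was -0.21, against -0.0027 over all genes. Chrna3 went from 17.32 CPM (16.03 to 18.68) in the control to 9.033 CPM (7.65 to 10.59) in the CFA library, 1.917-fold lower (log2 -0.94, -1.20 to -0.68). Chrnb4 was 17.89 CPM (16.58 to 19.27) and 10.17 CPM (8.699 to 11.82), 1.759-fold lower (log2 -0.81, -1.07 to -0.57). These intervals cover counting alone, and both genes lean on few neurons: the 10 highest neurons held 48.05% of control and 76.16% of CFA Chrna3 UMIs, and 40.0% and 62.94% of Chrnb4 UMIs. Without the highest neuron of each library, an alternative chosen after seeing the data, the log2 ratios were -1.16 and -0.88.

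Within Calca+ neurons without Nefh the pair was lower in CFA as well, on largely the same UMIs. These neurons held 598 of the 668 control and 135 of the 151 CFA Chrna3 UMIs. For Chrnb4 it was 601 of 690 and 160 of 170. The class ratio is thus no second support for the one over all neurons. In this class 8.35% of 12109 genes lay past 1.5-fold and 5.24% were lower past it. There 2 of 5 members lay past 1.5-fold, both lower, and the members' median log2 ratio was -0.22 against -0.0099 over all genes. Chrna3 was 44.38 and 20.4 CPM (log2 -1.12, -1.40 to -0.85) and Chrnb4 44.61 and 24.18 CPM (log2 -0.88, -1.14 to -0.63). The gap was wider in Sstr2+ neurons, at log2 -2.27 for Chrna3 and -1.35 for Chrnb4, than in Sstr2-low neurons, at -0.71 and -0.70, a difference between classes that was not tested. The cut at 2 raw Sstr2 UMIs took no account of depth. Sstr2 itself was 52.77 control and 84.02 CFA CPM in Calca+ neurons without Nefh. The Sstr2+ and Sstr2-low sets may therefore not match between the libraries. The Sstr2+ ratios were not recomputed under any alternative and rest on few CFA neurons. In that class 23 Chrna3 UMIs lay in 4 and 38 Chrnb4 UMIs in 5 of 70 CFA neurons. Some alternatives moved the Sstr2-low ratios. With class gates doubled Chrna3 in Sstr2-low neurons came to -0.23, and with neurons thinned to 5000 UMIs Chrnb4 came to -0.39. Thinning, or leaving out the highest neuron, instead widened the Chrna3 gap in Sstr2-low neurons. In the Lpar1-rich neurons the log2 ratios were -0.92 and -0.85, while Chrnb3 was 0.14 (-0.03 to 0.30). Lpar1 itself was 365.0 and 453.8 CPM in these neurons (log2 0.31, 0.19 to 0.44). The cut at 10 raw UMIs took no account of depth, with medians of 48688 and 37331 UMIs, so the sets may not match between the libraries. The Lpar1-rich neurons made up 22.97% of the class in control and 23.66% in CFA. Neurons with 1 to 9 Lpar1 UMIs made up 37.5% and 24.19%, and those with none 39.53% and 52.15%.

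Chrna6 was 71.45 CPM in control and 64.13 CPM in CFA over all neurons (log2 -0.16), and Chrnb3 59.11 and 56.11 CPM (log2 -0.08). Chrnb2 was 41.66 and 34.88 CPM (log2 -0.26, -0.40 to -0.12). In Mrgprd+ neurons, where 7.4% of 10727 genes lay past 1.5-fold, 0 of 3 members did, and the log2 ratio of Chrna6 was -0.0087. Chrnb3 there was higher in CFA by 0.39 (0.14 to 0.63), a ratio not recomputed under any alternative. It leaned on few neurons, since 1 neuron held 64 of the 208 CFA UMIs and 1 held 47 of the 446 control UMIs. Thinned to 5000 UMIs, 37 Chrnb3 UMIs remained in 144 control and 10 in 57 CFA neurons, which points the other way. No order of the libraries is therefore read for Chrnb3 in this class. Chrna4 was the member above 1.5-fold in the other direction, at 2.904 and 4.666 CPM over all neurons (log2 0.68, 0.25 to 1.11). Within Tafa4/Th+ neurons its log2 ratio was 0.19, and these neurons made up 7.995% of control and 9.976% of CFA neurons, Nppb/Sst+ neurons 1.722% and 2.92%. With each class given the same weight in both libraries, its mean share of the classed neurons, the Chrna4 ratio was 0.27. With every cell weighted equally it was 0.47, and both were under 1.5-fold. Thinned to 5000 UMIs it was 1.29 over all neurons and 1.08 in Tafa4/Th+ neurons, the latter from 3 control and 4 CFA UMIs.

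**Figure D5:**
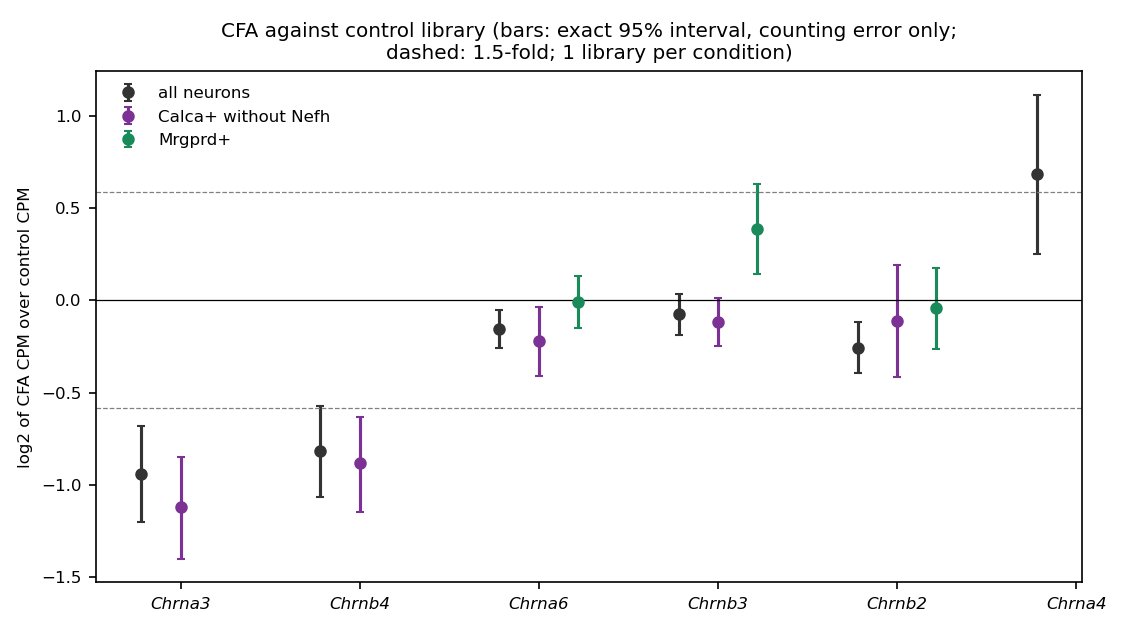
Log2 ratio of CFA over control for the members with at least 50 counts, in all neurons, Calca+ neurons without Nefh and Mrgprd+ neurons, with conditional exact binomial 95% intervals and dashed lines at 1.5-fold. Chrna3 and Chrnb4 lie below the lower line in the first 2 groups, and Chrna4 at 0.68 lies above the upper line in all neurons.

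Other genes of cholinergic signalling were read from a list of 27, of which 26 were in the tables (Chrna10 was not). It holds the other nicotinic subunits, proteins that help assemble or modulate nicotinic receptors, genes that make, move and break down acetylcholine, and muscarinic receptors. Over all neurons 15 had at least 50 counts and 3 lay past 1.5-fold (9.28% of all genes did), 1 lower and 2 higher, with a median log2 ratio of 0.08. Counts this small say little against that background. Tmem35a, the chaperone NACHO that nicotinic receptors need to assemble, was lower, at 76.43 and 50.25 CPM. Lypd1, a Ly6 protein that binds nicotinic receptors, was higher, at 8.4 and 13.46 CPM, as was the muscarinic receptor Chrm1, at 1.581 and 3.051 CPM. In Calca+ neurons without Nefh 2 of 12 lay past 1.5-fold (8.35% of all genes), Tmem35a lower and Chrm1 higher, with a median of -0.11. In Mrgprd+ neurons it was 3 of 7 (7.4% of all genes), all higher, with a median of 0.41: Lypd1 at 16.95 and 45.38 CPM, Lypd6 at 6.061 and 10.08 CPM and Ache at 12.22 and 20.17 CPM. None of the other nicotinic subunits reached 50 counts.

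Of the chaperones and modulators, Tmem35a and Lynx1 were among those that differed strongly in level between classes. Others were uneven too. The Calca-rich classes held 2.507% and 0.6667% of the neuronal UMIs of Lypd6b, and 83.06% and 90.57% of those of Ly6e. For Ly6h it was 37.59% and 32.25%. Tmem35a was 142.0 and 99.26 CPM in Mrgprd+ neurons but 7.867 and 4.08 CPM in Calca+ neurons without Nefh, where Chrna3 and Chrnb4 lay. Ric3, another nicotinic chaperone, was 45.29 and 45.65 CPM over all neurons, and 36.08 and 32.64 CPM in Mrgprd+ neurons against 44.01 and 44.28 CPM in Calca+ neurons without Nefh. Lynx1, which binds nicotinic receptors at the cell surface, was 383.5 and 374.5 CPM in Nefh+ neurons and 7.008 and 9.289 CPM in Mrgprd+ neurons. Ache, which breaks down acetylcholine, was 256.0 and 218.4 CPM in Calca+ neurons without Nefh. The choline transporter Slc5a7 was 12.84 and 17.53 CPM there, with 92.34% and 98.31% of its neuronal UMIs in Calca-rich classes, and the muscarinic receptor Chrm2 17.37 and 22.52 CPM. Chat, which makes acetylcholine, had 4 and 0 UMIs and its vesicular transporter Slc18a3 1 and 0 UMIs over all neurons.

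The genes most like each member across neurons were ranked by the lower of the r values of the 2 libraries, among 8682 genes. For Chrna6 they were Prkca (0.50 in control and 0.58 in CFA), Tmem233, Plcb3, Mrgprd and Gna14. For Chrnb3, Fgg, Stk32a, Tmem255a and Syndig1l followed Lpar1. For Chrnb2 they were Synpr (0.39 and 0.36), Cpe, Agtr1a, Mmp25 and Ctxn3. Chrna3 and Chrnb4 had under 200 UMIs in CFA neurons, so they were no candidates for these lists, and their own lists were made only after their values were seen. Their r with each other was above that of any gene listed. Nos1 led for Chrna3 (0.60 and 0.44), before Cmbl, Ngb, Lpar1 and Stk32a, and for Chrnb4 Nos1 (0.60 and 0.50), Aldh1a3, Amigo2 and Ngb followed Lpar1. The members of the Calca-rich pattern shared Lpar1, which was in the lists of Chrna3, Chrnb4 and Chrnb3, while the lists of Chrna6 and Chrnb2 shared no gene with these.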

How the data were processed

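Single-cell libraries were made with the BD Rhapsody whole-transcriptome system and sequenced on an Illumina NovaSeq. The deposited files hold whole-number UMI counts per gene and cell from the authors' processing, with fastp and the build GRCm38 named in the submitters' processing notes; the counter, its annotation and its strand setting are not given in the sources used here. Totals were 48916096 and 22096268 counts in 7298 control and 4080 CFA cells. The study's limits per cell were used: a kept cell had 150 or more genes and no more than 25% of its counts from mitochondrial genes.

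The members, lists, markers and gate thresholds were chosen with earlier results of these data known. Neurons had at least 50 UMIs of 8 neuron markers making at least 0.5% of their UMIs. Classes needed 10 UMIs (Mrgprd, Mrgpra3, Nppb with Sst, Tafa4 with Th) or 3 (Trpm8). The rest were divided at 100 Calca, 20 Nefh and 2 Sstr2 UMIs, leaving 111 control and 62 CFA neurons without a class, and 6 and 0 of several gates were left out of classes. Other cells needed 5 UMIs of one list making over 50% of all such list UMIs. Ratios have conditional exact binomial intervals, shares Clopper-Pearson intervals, and a gene was called at 1.5-fold with at least 50 counts. Shares at fixed depth rest on 1 random draw of 5000 UMIs per neuron, used throughout, with shallower neurons (25 control, 9 CFA) left out. Named genes were all 8 members, the 5 genes most like each member with at least 200 UMIs in the neurons of each library, and the cholinergic list. Doublets were kept in the main values; Scrublet scores above 0.25 marked 119 control and 47 CFA cells, 4 and 1 of them neurons. Promoters came from a RefSeq table, which matched 6 of the 8 members; Chrna6 and Chrnb3 were not among them. The interval code was tested on simulated counts. The thinning code was run on the real control neurons, where drawn counts of Calca and Chrna6 were set beside the expected ones. Python 3.11.15, numpy 2.4.6, scipy 1.17.1, pandas 2.3.3, scanpy 1.11.5 and matplotlib 3.10.9 were used.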

Additional observations from a re-analysis of the deposited data

Results flagged for a closer look

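Some log2 ratios of CFA over control had opposite signs in different neuron classes, with counting intervals that left out 0 on both sides; the differences between classes were not tested, and 1 library stood for each condition. Chrnb3 was -3.20 in Calca+Nefh+ neurons (19 control and 7 CFA neurons) and 0.39 in Mrgprd+ neurons. The value of -3.20 rests on 4 CFA UMIs in 1 neuron, against 83 control UMIs in 7 neurons, 27 of them in 1. In Mrgprd+ neurons 1 neuron held 64 of the 208 CFA UMIs and 1 held 47 of the 446 control UMIs. Thinned to equal depth, 37 UMIs remained in 144 control and 10 in 57 CFA Mrgprd+ neurons, which points the other way. As above, no order of the libraries is read for Chrnb3 in Mrgprd+ neurons. Ache was -0.29 in Trpm8+, -0.28 in Calca+Sstr2+ and -0.20 in Calca+Sstr2-low neurons, but 0.72 in Mrgprd+ neurons. Lynx1 was -0.25 in Calca+Sstr2+ neurons, and 1.34 in Nppb/Sst+, 0.32 in Tafa4/Th+ and 0.38 in Calca+Nefh+ neurons.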

How the results depend on the processing

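Of 575 values recomputed under an alternative, 511 stayed and 64 moved. A value stayed if it lay within the counting interval of the reported value. The number of members past 1.5-fold has no such interval and stayed if within 1.5-fold of the reported number, so 2 against 3 counted as staying. Of the recomputed ratios whose interval left out 0, 0 changed sign. The ratio of Chrnb3 between the libraries in Mrgprd+ neurons was not among those recomputed. Among the 287 values that answer a comparison, 269 stayed and 18 moved. Some values could not change, such as those over all neurons when only the class gates were altered. The counts of values that stayed therefore overstate how stable the results are. With class gates doubled, the Chrna3 log2 ratio of CFA over control in Calca+Sstr2-low neurons was -0.23 and the Chrna6 log2 ratio of Mrgprd+ over Calca+Sstr2-low neurons in control 1.30. With every cell weighted equally the latter was 1.37. Without the neuron with the most UMIs, chosen after seeing the data, Chrna3 in Calca+Sstr2-low neurons was -1.05. Thinning to 5000 UMIs gave log2 ratios of CFA over control of -1.25 (Calca+Sstr2-low) and -1.51 (Calca+ without Nefh) for Chrna3, -0.39 for Chrnb4 in Calca+Sstr2-low, 0.18 for Chrna6 in Mrgprd+, 0.21 (Calca+Sstr2-low) and 0.13 (Calca+ without Nefh) for Chrnb3, and 1.29 (all neurons) and 1.08 (Tafa4/Th+) for Chrna4. It gave class ratios, control then CFA, of 1.42 and 1.75 for Chrna6 (Mrgprd+ over Calca+Sstr2-low) and 1.12 and 1.88 for Chrnb3 (Calca+Sstr2-low over Mrgprd+), and of 1.69 in control for Chrnb2 (Mrgprd+ over Calca+Sstr2-low). Thinning leaves few UMIs (3 control and 4 CFA Chrna4 UMIs in Tafa4/Th+ neurons) and rests on 1 draw. At 10000 UMIs 67.31% of control Chrna3 neurons held Chrnb4. The members past 1.5-fold over all neurons numbered 3. They numbered 2 with every cell weighted equally, with the same class weights in both libraries, or at a minimum of 200 counts. Of the other values 46 of 288 moved. No paired analysis was possible because each condition has 1 library, and no library could be left out.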
